A study of Mus musculus with 24 samples.

Results

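The matrix metalloproteinases (Mmp genes), the ADAMTS proteases (Adamts genes) and the tissue inhibitors of metalloproteinases (Timp genes) were followed in cultured mouse forelimb buds. They were taken by symbol: every gene named Mmp, Adamts or Timp followed by a number, and a or b where there was one, with at least 1 read. This gave 44 of the 25844 genes with a count, of which 21 were Mmp genes, 19 Adamts genes and 4 Timp genes. Forelimb buds of CD1 mouse embryos at gestation day 13 were cultured with DMSO as the solvent control, with 1 µM BPDP or with 10 µM BPDP, and collected after 3 or 24 h. All 6 groups were wild-type CD1 tissue, with 4 libraries each. BPDP is tert-butylphenyl diphenyl phosphate, one of the organophosphate esters added to plastics and foams to slow fire. Poly-A RNA of whole buds was sequenced, so cartilage, loose mesenchyme, epidermis, vessels, muscle and resident blood cells were read together, and fewer cells of a type cannot be told apart from less RNA per cell. The labels do not say whether a library came from 1 embryo or several, and p-values here therefore reflect only how far these libraries differ, which may be technical in part.

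Metalloproteinases cut the proteins between cells with the help of a zinc ion. Collagenases open fibrillar collagen, gelatinases digest the opened collagen and basement membrane collagen, stromelysins cut a wide range of matrix proteins, and membrane-type enzymes work at the cell surface, where Mmp14 also activates the precursor of Mmp2. ADAMTS proteases cut the cartilage proteoglycans aggrecan and versican, trim the ends of procollagen, or serve more specialised tasks. TIMP proteins bind the active site of these enzymes and stop them, and Timp2 also takes part in the activation of the Mmp2 precursor by Mmp14. In a growing limb bone, Mmp13 of late hypertrophic chondrocytes and Mmp9 of osteoclasts and other invading cells clear the cartilage that bone replaces.

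The libraries held 14165947 to 20823058 counted reads, of which the 44 genes took 0.174% to 0.306%. Levels are given as CPM, read counts scaled by library size after TMM normalization, and were divided by gene length, as CPM per kb, wherever genes are compared with each other. Markers of limb mesenchyme (12 genes) summed to 3565 to 4953 CPM over the 24 libraries and those of cartilage (11 genes measured) to 3851 to 14390 CPM, and no gene of either list was at 0 in any group. After the group means were taken out, the leading principal component (19.5% of the variance) put replicates 1 and 2 on one side and replicates 3 and 4 on the other in all 6 groups. The labels name no batch, so values within replicates 1 and 2 and within replicates 3 and 4 stand beside the results below.

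Among Mmp genes the surface enzyme Mmp14 and the gelatinase Mmp2 were the most abundant per length. Their mean over the 6 groups was 170.8 CPM per kb for Mmp14 and 139.0 CPM per kb for Mmp2. Group means ran from 141.5 to 208.4 CPM per kb for Mmp14 and from 104.3 to 182.7 CPM per kb for Mmp2, so these ranges overlapped. Within each of the 6 groups the mean of Mmp14 was above that of Mmp2. Mmp11, a stromelysin by name that is known from tissue being remodelled, followed with 43.2 CPM per kb. Mmp15, another membrane-type enzyme, averaged 11.1 CPM per kb and Mmp9 averaged 10.1 CPM per kb. The other 16 Mmp genes lay at or below 5.14 CPM per kb, the level of Mmp16. Mmp24, Mmp8, Mmp21, Mmp10, Mmp1b, Mmp1a and Mmp20 were at or below 0.0684 CPM per kb, and Mmp20, the enzyme of tooth enamel, had 1 read in 1 of the 24 libraries.

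Timp2 was the leading inhibitor, with 103.4 CPM per kb over the 6 groups. Timp3, which stays bound to the matrix, averaged 22.7 CPM per kb, Timp1 averaged 13.9 CPM per kb and Timp4 averaged 0.334 CPM per kb. The most abundant Adamts genes were lower than the leading Mmp genes. Adamts10, which is linked to fibrillin microfibrils, led with 24.0 CPM per kb, ahead of the proteoglycan-cutting Adamts15 (17.3 CPM per kb) and Adamts1 (13.4 CPM per kb). Adamts17 averaged 12.3 CPM per kb and Adamts7, which cuts cartilage oligomeric matrix protein, averaged 10.5 CPM per kb. The other 14 Adamts genes lay at or below 6.34 CPM per kb, and Adamts13, the liver protease of von Willebrand factor, was the lowest with 0.00788 CPM per kb.

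**Figure D1:**
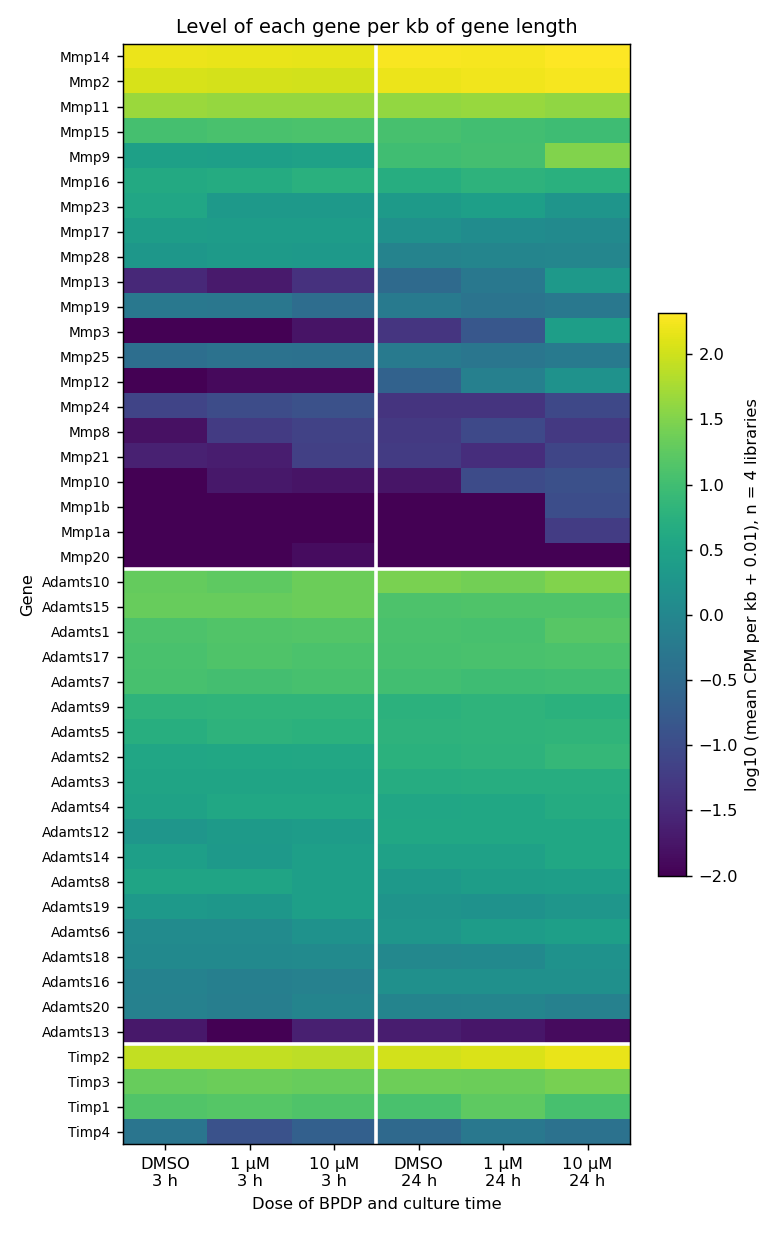
Mean level of each of the 44 genes (rows, ordered within Mmp, Adamts and Timp by the mean over groups) in the 6 groups (columns), as log10 of CPM per kb of gene length plus 0.01, 4 libraries per group. Mmp14, Mmp2 and Timp2 stay at the top in every group, while Mmp9, Mmp13, Mmp12 and Mmp3 run from darker at 3 h to lighter with 10 µM at 24 h.

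The question of the main comparison was what 24 h with 10 µM BPDP did to these genes. Timp2 and Adamts1 rose, no member was called as lower, and Mmp9, Mmp13, Mmp12 and Mmp3 had higher means than in controls but were not called. Summed over the 4 Timp genes, the level was 719.2, 744.9, 647.6 and 672.6 CPM with 10 µM, against 546.8, 495.9, 479.6 and 523.8 CPM in controls, with no overlap. Most of this sum was Timp2 itself, with a mean of 556.4 of 696.1 CPM with 10 µM and 390.3 of 511.5 CPM in controls. The 21 Mmp genes summed to 1549, 1570, 1221 and 1218 CPM with 10 µM, against 1418, 1113, 1115 and 1132 CPM in controls, and the 19 Adamts genes to 720.6 ± 44.5 CPM with 10 µM and 648.2 ± 88.5 CPM in controls (SD, n = 4 each), both with overlap. These sums were not tested.

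Of 34 members with enough reads to test, 2 rose at an adjusted p under 0.05 (edgeR quasi-likelihood test, Benjamini-Hochberg adjustment over all genes tested). This is 5.88% of the members tested, against 6.21% of all 15508 genes tested, with 2.77% of all genes called as higher. With the replicate number as a block, 6 of the 34 members were called, all higher (17.6%), against 10.6% of all genes. Mmp12 and Mmp13 are among these 6, but too few of their control libraries reached the count minimum. They could be tested only through their 10 µM libraries, so the direction of their calls was fixed. These calls add no support for a rise, and the share of 17.6% includes them. The 10 members left out for low counts were Mmp1a, Mmp1b, Mmp3, Mmp8, Mmp10, Mmp20, Mmp21, Mmp24, Adamts13 and Timp4. In 4 members (Timp2, Adamts1, Adamts18 and Mmp9) every treated library lay above every control library, and none lay wholly below, where 6.86% of all genes lay wholly above. The median log2 fold change of the tested members was 0.14, against -0.02 for all genes tested.

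Timp2 (ENSMUSG00000017466, mm10, chr11:118301069-118355740, minus strand) had 575.1, 601.8, 517.6 and 531.3 CPM with 10 µM BPDP at 24 h, against 392.1, 381.7, 378.0 and 409.2 CPM in the 24 h controls. The groups were far apart: the lowest treated library stood above the highest control by more than the whole spread of the controls. The mean was 556 ± 38.9 CPM with 10 µM and 390 ± 13.98 CPM in controls (SD, n = 4 each), a log2 fold change of 0.52 (SE 0.09, adjusted p = 0.00586). The call held when any 1 of the 8 libraries was left out (adjusted p from 0.00442 to 0.0301). The fold change was 0.61 within replicates 1 and 2 (adjusted p = 0.235) and 0.43 within replicates 3 and 4 (adjusted p = 0.0236).

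Timp2 also differed between doses and between times of exposure. With 1 µM at 24 h it had 447.8, 497.9, 412.3 and 432.8 CPM, all above the controls and all below the 10 µM libraries. Against 1 µM, the 10 µM buds were higher by 0.31 on the log2 scale (SE 0.08, adjusted p = 0.0270). That call was lost without 1 µM replicate 1, 3 or 4 (adjusted p = 0.0735, 0.0991 and 0.0640) or without 10 µM replicate 1 or 2 (0.0769 and 0.0984). At 3 h the levels were 285.0, 307.1, 273.0 and 285.2 CPM with 10 µM and 348.8, 308.7, 286.8 and 297.4 CPM in controls, which overlapped (log2 fold change -0.10, adjusted p = 0.578). The effect of 10 µM at 24 h minus that at 3 h was 0.62 (SE 0.12, adjusted p = 0.00134), the only such difference called among 35 members, where 2.59% of all genes were called, 0.983% as higher. It held without any 1 of the 16 libraries (adjusted p from 0.00167 to 0.00501), and was 0.76 within replicates 1 and 2 (adjusted p = 0.170) and 0.50 within replicates 3 and 4 (adjusted p = 0.0268). A short gene on the same strand, BC100451, lies inside the Timp2 locus and had 0.0579 to 2.20 CPM in the 24 libraries.

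The other Timp genes passed no test in this comparison. Timp3 had 134.8, 128.4, 119.0 and 132.8 CPM with 10 µM, against 144.8, 102.9, 89.8 and 103.3 CPM in controls, with the highest control above all treated libraries (log2 fold change 0.23, SE 0.13, adjusted p = 0.331). Without control replicate 1 it was 0.40 and passed (adjusted p = 0.0138), and it was 0.09 within replicates 1 and 2 (adjusted p = 0.907) and 0.40 within replicates 3 and 4 (adjusted p = 0.0434). At 24 h Timp1 had 9.85, 11.1, 10.7 and 10.9 CPM in controls, 19.0, 21.5, 10.5 and 10.2 CPM with 1 µM, and 8.21, 14.4, 10.5 and 8.20 CPM with 10 µM. Only replicates 1 and 2 of the 1 µM group stood above the rest, and the log2 fold changes from control were 0.53 for 1 µM (adjusted p = 0.813) and -0.03 for 10 µM (adjusted p = 0.947). Timp1, Timp3 and Timp4 each lie inside a synapsin gene (Syn1, Syn3 and Syn2) on the other strand, and the protocol does not say whether strand was kept. These synapsin genes stayed at or below 3.94 CPM in all libraries. For Timp4, which had at most 1.29 CPM in any library, this is no low level, as Syn2 had 0.93 to 3.82 CPM.

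Adamts1 (ENSMUSG00000022893, chr16:85793827-85803113, minus strand), which cuts versican and aggrecan, had 78.4, 79.1, 67.4 and 82.2 CPM with 10 µM at 24 h, against 64.0, 61.6, 46.7 and 60.3 CPM in the 24 h controls. The groups did not overlap, but the lowest treated library was only slightly above the highest control. The log2 fold change was 0.41 (SE 0.11, adjusted p = 0.0443), 0.33 within replicates 1 and 2 (adjusted p = 0.400) and 0.50 within replicates 3 and 4 (adjusted p = 0.0733). The call was lost in 5 of 8 fits with 1 library left out: without control replicate 3 or 4 (adjusted p = 0.0784 and 0.0887) and without 10 µM replicate 1, 2 or 4 (0.119, 0.114 and 0.137). Against 1 µM, which had 52.2, 66.3, 54.8 and 54.9 CPM, it was higher with 10 µM by 0.43 (SE 0.10, adjusted p = 0.0185), with no overlap. That call was lost without 1 µM replicate 1 or 3 (adjusted p = 0.0803 and 0.0607) or 10 µM replicate 1 or 4 (0.0527 and 0.0643).

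Mmp9 (ENSMUSG00000017737, chr2:164940780-164955850, plus strand), the gelatinase of invading cells, spread widely between treated replicates. It had 146.8, 144.0, 55.6 and 57.1 CPM with 10 µM at 24 h, against 33.6, 35.3, 24.3 and 30.1 CPM in the 24 h controls. All treated libraries stood above all controls, and within the treated group replicates 1 and 2 stood apart from replicates 3 and 4. The log2 fold change was 1.72 (SE 0.39) and just missed the threshold (adjusted p = 0.0524). Within replicates 1 and 2 it was 2.08 (adjusted p = 0.00514) and within replicates 3 and 4 it was 1.06 (adjusted p = 0.0013), both past the threshold. With the replicate number as a block it was called (1.58, adjusted p = 0.0254), as it was by DESeq2 (adjusted p = 0.000578). Without 10 µM replicate 3 or 4 it was also called (adjusted p = 0.0333 and 0.0354).

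At 24 h the 1 µM libraries had 54.2, 51.3, 12.5 and 19.4 CPM of Mmp9, which were above the controls in replicates 1 and 2 and below them in replicates 3 and 4. With 10 µM it was higher than with 1 µM by 1.56 (SE 0.39, adjusted p = 0.0333), by 1.46 within replicates 1 and 2 (adjusted p = 0.00273) and by 1.82 within replicates 3 and 4 (adjusted p = 0.000133). The pooled call was lost without 1 µM replicate 3 or 4 (adjusted p = 0.0772 and 0.0830) or 10 µM replicate 1 or 2 (0.105 and 0.101). At 3 h Mmp9 lay between 6.55 and 11.8 CPM in all 12 libraries. The 10 µM effect at 24 h minus that at 3 h was 1.67 (SE 0.58), which was not called (adjusted p = 0.155).

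**Figure D2:**
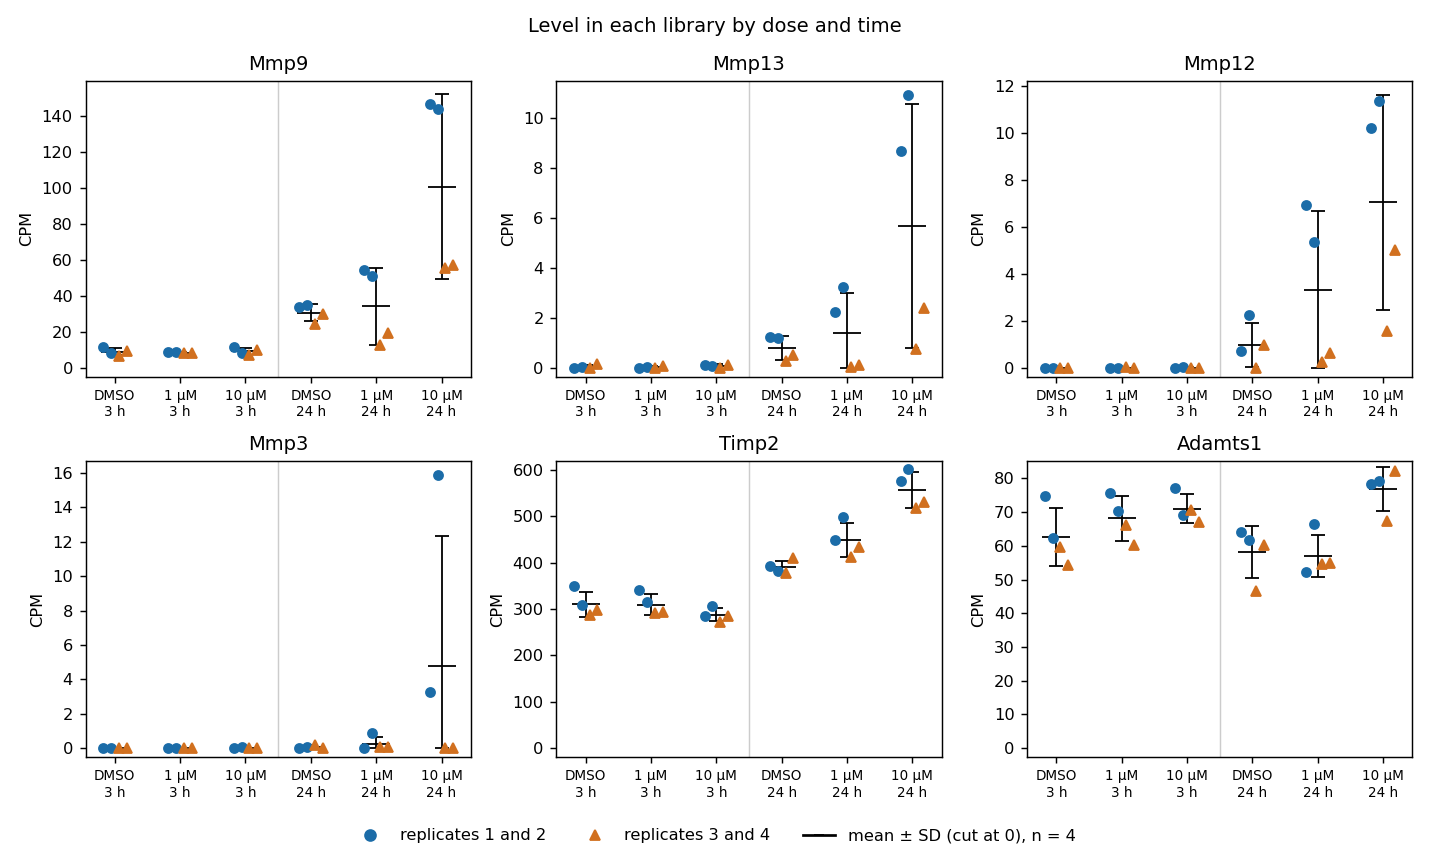
CPM of 6 genes in each of the 24 libraries by dose and time (circles replicates 1 and 2, triangles replicates 3 and 4, black bars mean ± SD of 4 libraries, cut at 0). Timp2 climbs with dose at 24 h in all replicates, whereas the 10 µM levels of Mmp9, Mmp13 and Mmp12 are higher in replicates 1 and 2 than in replicates 3 and 4, and Mmp3 rests on replicates 1 and 2 alone.

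Mmp13, the collagenase of hypertrophic cartilage, lies in a cluster on chromosome 9 with 7 other members: Mmp12 (macrophage elastase), the collagenases Mmp1a, Mmp1b and Mmp8, the stromelysins Mmp3 and Mmp10, and Mmp20. The 8 genes span 402.5 kb (mm10, chr9:7272514-7674968). Their summed level at 24 h was 1.96, 3.54, 0.699 and 1.68 CPM in controls, 9.77, 9.98, 0.568 and 0.931 CPM with 1 µM, and 22.8, 39.7, 2.36 and 7.42 CPM with 10 µM. In the 3 h groups it was at most 0.536 CPM in any library. The 10 µM libraries of replicates 1 and 2 held the highest sums, and replicate 3 of that group lay within the control range.

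The promoter windows of Mmp13, Mmp12 and Mmp3, the 3 cluster genes with the most reads, and of Timp2, the called inhibitor, are shown to set their letters side by side. Each runs from 250 bases before to 50 bases after the RefSeq start (GRCm38.p6, 5′ to 3′ on the gene's strand), and capitals mark matches to AP-1 (TGANTCA), RUNX (TGTGGTT) and ETS (AGGAAG) motifs on either strand. A GLI motif (GACCACCCA) was searched as well.
Mmp13 (chr9:7272264-7272563, plus strand): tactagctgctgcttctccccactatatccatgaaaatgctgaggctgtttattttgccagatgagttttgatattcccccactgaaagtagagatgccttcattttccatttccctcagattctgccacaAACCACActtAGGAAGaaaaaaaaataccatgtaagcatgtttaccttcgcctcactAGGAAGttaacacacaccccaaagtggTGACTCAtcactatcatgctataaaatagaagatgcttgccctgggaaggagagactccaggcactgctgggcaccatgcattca
Mmp12 (chr9:7344147-7344446, plus strand): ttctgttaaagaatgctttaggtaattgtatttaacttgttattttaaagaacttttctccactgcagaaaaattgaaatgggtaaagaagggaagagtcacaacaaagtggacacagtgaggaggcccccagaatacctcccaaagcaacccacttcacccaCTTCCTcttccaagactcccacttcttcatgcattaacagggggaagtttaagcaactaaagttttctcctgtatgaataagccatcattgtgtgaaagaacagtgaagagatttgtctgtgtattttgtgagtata
Mmp3 (chr9:7445572-7445871, plus strand): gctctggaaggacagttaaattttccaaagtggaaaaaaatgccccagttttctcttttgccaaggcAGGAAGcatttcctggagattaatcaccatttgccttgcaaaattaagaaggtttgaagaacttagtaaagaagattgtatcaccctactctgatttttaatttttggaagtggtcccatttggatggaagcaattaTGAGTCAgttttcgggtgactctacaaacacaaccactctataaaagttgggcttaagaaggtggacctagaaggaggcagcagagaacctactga
Timp2 (chr11:118355362-118355661, minus strand): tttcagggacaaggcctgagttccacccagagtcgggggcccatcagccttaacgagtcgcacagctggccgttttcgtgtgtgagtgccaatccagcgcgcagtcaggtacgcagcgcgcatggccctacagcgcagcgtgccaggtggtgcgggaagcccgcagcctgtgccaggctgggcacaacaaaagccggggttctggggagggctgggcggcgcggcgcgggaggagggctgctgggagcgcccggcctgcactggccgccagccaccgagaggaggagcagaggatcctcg
The Mmp13 window held AP-1 at -35, RUNX at -119 and ETS at -109 and -62, counted from the start to the leftmost base of the match. The Mmp3 window held AP-1 at -46 and ETS at -183, the Mmp12 window held ETS at -87, and the Timp2 window, whose start lies 329 bases inside the locus as deposited, held none of the 4.

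Of the 44 members, 30 had such a window, and 6 of these held an AP-1 match: Mmp10, Mmp13, Mmp1a, Mmp1b, Mmp20 and Mmp3, all in the chromosome 9 cluster. The Mmp20 match read TGAATCA, whereas the others had G or C at the free base. For Adamts20 and Timp4 the RefSeq start lay 61068 and 356 bases from the gene start as deposited. AP-1 letters were in 7.79% of all 32544 windows in the table. ETS letters were in 14 of the 30 member windows, where 35.1% of all windows held them. RUNX letters were in 1 (5.29% of all windows) and the GLI letters in none (0.246% of all windows). These matches describe the letters only. Mmp2 and Mmp9 had no window in the table.

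Mmp13 (ENSMUSG00000050578, chr9:7272514-7283333, plus strand) had 8.66, 10.9, 0.765 and 2.39 CPM with 10 µM at 24 h, against 1.22, 1.18, 0.269 and 0.508 CPM in the 24 h controls. The groups overlapped through replicate 3, although in each replicate number the treated library was above the control. The log2 fold change was 2.85 (SE 0.83, adjusted p = 0.0844), which did not pass. With the replicate block it passed (2.62, adjusted p = 0.000382). Within replicates 1 and 2 it was 3.03 (adjusted p = 0.0867) and within replicates 3 and 4 it was 2.01 (adjusted p = 0.168). Without 10 µM replicate 3 it also passed (adjusted p = 0.0151). As too few control libraries reached the count minimum, Mmp13 could be tested against control only through its 10 µM libraries. The direction of these passes was thereby fixed, and they add no support for a rise. With 1 µM Mmp13 had 2.24, 3.23, 0.0517 and 0.110 CPM, and at 3 h no library passed 0.169 CPM. The difference of 10 µM from 1 µM at 24 h was 2.04 (SE 0.84, adjusted p = 0.204), and 2.24 with the block (adjusted p = 0.0108).

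Mmp12 (ENSMUSG00000049723, chr9:7344381-7369499, plus strand) had 10.2, 11.4, 1.59 and 5.03 CPM with 10 µM at 24 h, against 0.734, 2.26, 0 and 0.965 CPM in the 24 h controls. Replicate 3 of the 10 µM group again lay inside the control range, and each treated library was above the control of its number. The log2 fold change was 2.83 (SE 0.93, adjusted p = 0.135), and 3.00 with the replicate block (adjusted p = 0.000617). Mmp12 too could be tested here only through its 10 µM libraries, so the blocked call had a fixed direction and adds no support for a rise. Replicates 1 and 2 alone gave 2.84 (adjusted p = 0.184) and replicates 3 and 4 gave 2.76 (adjusted p = 0.360). With 1 µM it had 6.94, 5.37, 0.258 and 0.657 CPM, above all controls in replicates 1 and 2 and within their range in replicates 3 and 4 (log2 fold change 1.71, adjusted p = 0.949).

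Mmp3 (ENSMUSG00000043613, chr9:7445822-7455972, plus strand) had 3.29, 15.9, 0 and 0 CPM with 10 µM at 24 h, against 0, 0.0513, 0.215 and 0 CPM in the 24 h controls. It was high in 2 of 4 treated libraries and held no read in the other two, too few libraries for the count minimum, so it was not tested. With 1 µM it reached 0.895 CPM in replicate 2 and at most 0.0548 CPM elsewhere. Mmp1a and Mmp1b, the mouse relatives of human interstitial collagenase, had 7 and 10 reads over the 4 libraries with 10 µM at 24 h and no read in any other group. Taken against the limit of 3 counts over the 4 controls, these levels were 2.504-fold and 3.578-fold that limit. The reads with 10 µM were taken as counted, without their own counting error, so these ratios are not lower bounds. All 7 Mmp1a reads and 7 of the 10 Mmp1b reads came from replicate 2, and without it neither level is above the limit. The Mmp1b locus overlaps that of Mmp12 on the other strand by 1261 bases, and Mmp1a and Mmp1b resemble each other, so the origin of these few reads is uncertain. At 24 h Mmp10 had 1 read in controls, 9 with 1 µM and 13 with 10 µM, all of them in replicates 1 and 2. Mmp8, a collagenase best known from neutrophils, had 8 reads in controls, 14 with 1 µM and 8 with 10 µM.

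Mmp2 and Mmp14 were the most abundant Mmp genes and did not pass the test. Mmp2 had 612.2, 597.8, 500.3 and 510.0 CPM with 10 µM at 24 h, against 642.0, 418.8, 421.5 and 445.9 CPM in controls, where replicate 1 stood above every treated library. The log2 fold change was 0.21 (SE 0.14, adjusted p = 0.454), with 0.20 within replicates 1 and 2 (adjusted p = 0.831) and 0.23 within replicates 3 and 4 (adjusted p = 0.165). Without control replicate 1 it was 0.38 and passed the threshold (adjusted p = 0.0456). Mmp14 had 600.5, 603.8, 488.6 and 472.5 CPM with 10 µM, against 571.3, 469.6, 469.2 and 453.3 CPM in controls, with overlap (log2 fold change 0.15, SE 0.12, adjusted p = 0.540). Mmp11 had 91.6, 99.3, 89.3 and 82.8 CPM with 10 µM, against 80.4, 100.4, 101.1 and 103.8 CPM in controls, which overlapped (-0.08, SE 0.10, adjusted p = 0.691). Mmp23, the most abundant per length of the Mmp genes outside these classes, had 1.32, 3.32, 2.42 and 2.97 CPM with 10 µM and 4.59, 4.56, 1.29 and 2.54 CPM in controls (-0.37, SE 0.42, adjusted p = 0.681).

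Among the procollagen N-proteinases, which trim fibrillar procollagens, Adamts2 had 70.4, 64.7, 41.1 and 44.9 CPM with 10 µM at 24 h, against 43.9, 50.2, 32.1 and 37.1 CPM in controls. The groups overlapped, and in each replicate number the treated library was higher. The log2 fold change was 0.45 (SE 0.19, adjusted p = 0.213), with 0.53 within replicates 1 and 2 and 0.33 within replicates 3 and 4, and it passed with the replicate block (0.43, adjusted p = 0.0109). Adamts3 (0.10) and Adamts14 (0.38) did not pass with or without the block. Adamts18 had 8.21, 8.45, 9.82 and 8.65 CPM with 10 µM, against 6.61, 5.33, 6.24 and 4.98 CPM in controls, with no overlap and even replicates in both groups. Its log2 fold change was 0.61 (SE 0.18, adjusted p = 0.0641), 0.49 within replicates 1 and 2 and 0.73 within replicates 3 and 4, and it was 0.68 without control replicate 1 (adjusted p = 0.0471). With the block Adamts18 stayed short of the threshold (adjusted p = 0.0559), and 6 members were then called: Timp2, Adamts1, Adamts2, Mmp9, Mmp12 and Mmp13, all higher, where the block called 10.6% of all genes. Of these 6, Mmp12 and Mmp13 could be tested only through their 10 µM libraries, and their calls add no support for a rise.

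No other Adamts gene passed with 10 µM at 24 h. Adamts10 had 141.6, 134.5, 109.8 and 129.7 CPM with 10 µM, against 109.5, 165.2, 72.1 and 109.7 CPM in controls (log2 fold change 0.18, SE 0.22, adjusted p = 0.703). Adamts7 had 54.9, 54.6, 51.0 and 53.2 CPM with 10 µM, against 54.6, 61.7, 51.2 and 51.4 CPM in controls (-0.03, SE 0.09, adjusted p = 0.905). Adamts15 had 80.5, 78.6, 76.7 and 82.7 CPM with 10 µM, against 49.1, 92.4, 81.5 and 89.9 CPM in controls (0.03, SE 0.16, adjusted p = 0.944). In all 3 the groups overlapped. The Adamts7 locus shares 6045 bases with Tbc1d2b on the other strand, which had 48.3 to 71.8 CPM in the 24 libraries, a level like that of Adamts7. The aggrecanases Adamts4 (0.31, adjusted p = 0.320) and Adamts5 (0.10, adjusted p = 0.735) did not pass either. Adamts13, with 1 read with 10 µM and 4 reads in controls, was not tested. Leaving out Mmp9, Mmp12 and Mmp13, the members that were not called had log2 fold changes from -0.42 (Mmp17, a membrane-type enzyme) to 0.61 (Adamts18).

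The authors' deposited table of this comparison called 4 of these genes, all higher: Timp2, Mmp9, Adamts1 and Adamts18, with adjusted p of 3.26e-08, 0.000689, 0.0151 and 0.0235. Mmp9 has a log2 fold change of 0.96 in the authors' deposited table, against 1.72 in the fit made here. The deposited fold changes of Mmp13 (0.52) and Mmp12 (0.34) are also far below the values given above, whereas that of Timp2 (0.51) is close to its value above. The 2 sets of fold changes are thus not on the same scale for every gene and cannot be read as estimates of the same size. The reason was not tested.

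**Figure D3:**
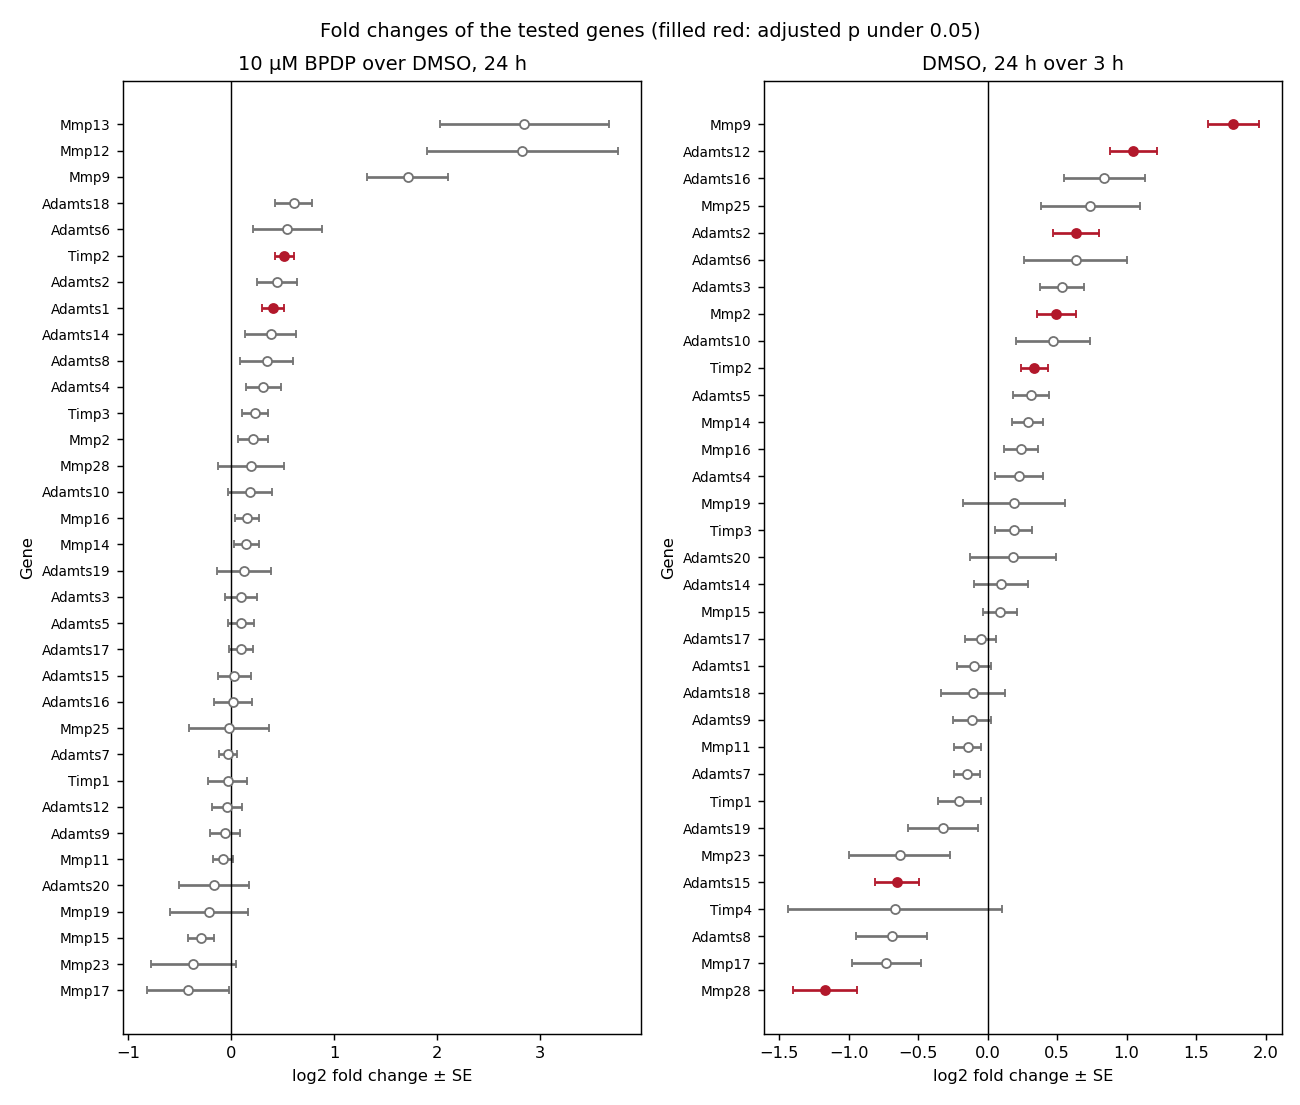
Log2 fold change ± SE of the tested genes, sorted by size, for 10 µM BPDP over control at 24 h (left, 34 genes) and for control at 24 h over 3 h (right, 33 genes). Filled red points passed an adjusted p of 0.05: Timp2 and Adamts1 on the left, and 7 genes on the right, of which Adamts15 and Mmp28 are lower at 24 h.

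Markers of cells known to carry these enzymes were measured in the same libraries. Of 11 macrophage markers tested, 7 fell and none rose with 10 µM at 24 h (median log2 fold change -1.63, against -0.02 for all genes), led by Cx3cr1 (-2.78), C1qa (-2.57), C1qc (-1.97) and Csf1r (-1.88). Their summed level was 69.1 to 100.3 CPM with 10 µM and 171.7 to 262.4 CPM in controls, with none of the 11 at 0. Of 8 osteoclast markers 4 were tested and 1 rose, Atp6v0d2, a proton pump subunit (1.53, SE 0.42, adjusted p = 0.0497), which stayed at or below 2.74 CPM. Dcstamp and Ocstamp, which mark osteoclast fusion, had no read in 3 of the 4 libraries with 10 µM, and Calcr and Oscar were at most 0.765 CPM. Acp5 averaged 7.83 CPM with 10 µM and 14.1 CPM in controls. The osteoclast sum of 168.3 to 191.8 CPM with 10 µM and 132.5 to 191.8 CPM in controls was mostly Nfatc1, which other cells also express. Neutrophil markers (9 genes) summed to 1.29 to 3.49 CPM with 10 µM and 1.57 to 5.59 CPM in controls, with Ly6g at 0 in both groups and Elane at 0 in controls. Of 12 endothelial markers 5 fell and 1 rose, with sums of 336.0 to 374.6 CPM with 10 µM and 426.9 to 486.6 CPM in controls and none at 0. The part of these cell types in the Mmp9, Mmp12 and Mmp13 levels was not tested.

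Of 13 tested genes of hypertrophic cartilage and osteoblasts, Ihh (1.85) and Pth1r (0.59) rose and Runx3 (-1.90) and Runx2 (-0.83) fell with 10 µM at 24 h. Col10a1, the collagen of hypertrophic cartilage, had 142.3, 167.6, 48.9 and 36.1 CPM with 10 µM, against 155.7, 125.6, 25.6 and 13.0 CPM in controls. In both groups replicates 1 and 2 were far above replicates 3 and 4. Mmp13 was likewise higher in replicates 1 and 2 in every 24 h group, controls included. The groups overlapped (log2 fold change 0.32, SE 0.94, adjusted p = 0.902). Summed over the 14 genes of this list, the level was 803.2 to 1171 CPM with 10 µM and 755.3 to 1143 CPM in controls. The part of this list's cells in the Mmp9 and Mmp13 levels was not tested.

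**Figure D4:**
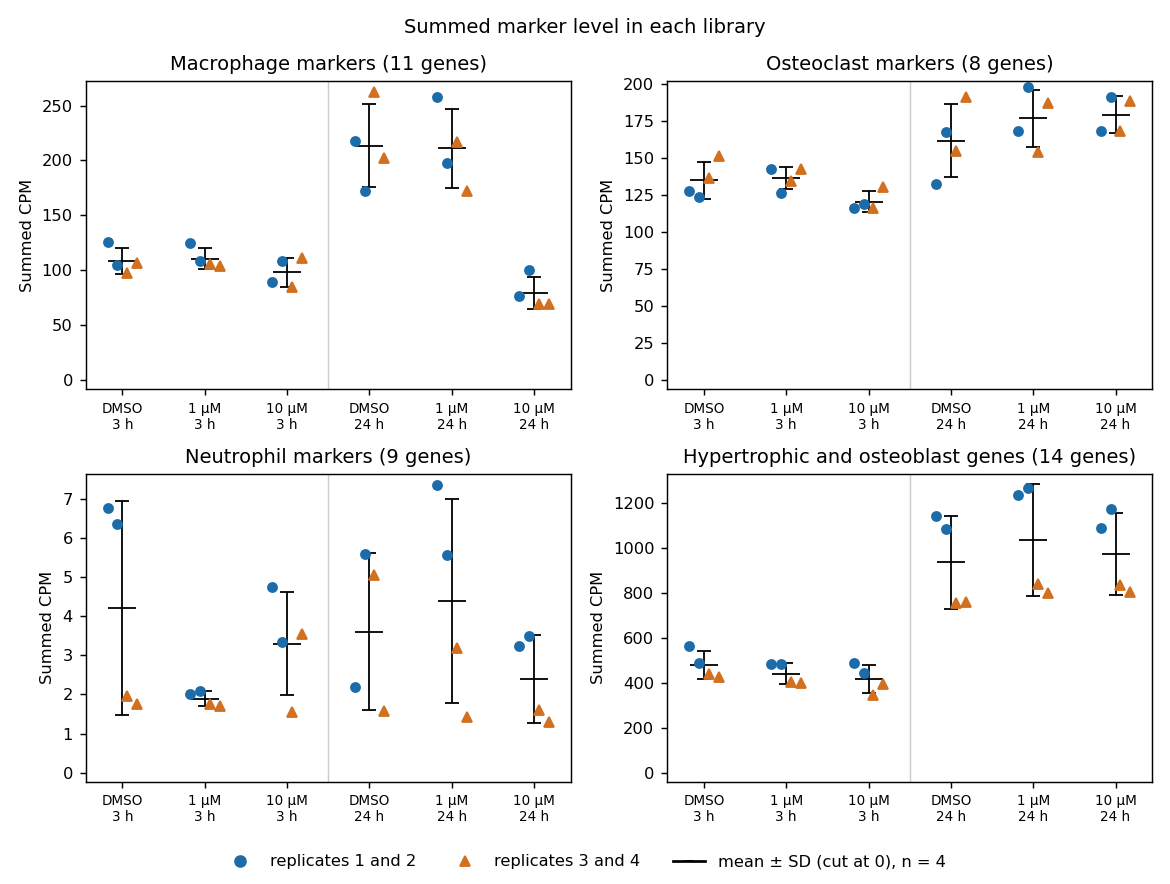
Summed CPM of macrophage, osteoclast and neutrophil markers and of hypertrophic cartilage and osteoblast genes in each library, by dose and time (circles replicates 1 and 2, triangles replicates 3 and 4, black bars mean ± SD, n = 4). Macrophage markers are lowest with 10 µM at 24 h, at 69.1 to 100.3 CPM. The hypertrophic and osteoblast genes are higher in replicates 1 and 2 than in replicates 3 and 4 in every group at both times.

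Other genes of matrix turnover were followed by lists. Of 19 tested ADAM and astacin proteases 1 rose with 10 µM at 24 h, the membrane peptidase Mme (0.43). Of 7 ADAMTS-like genes, which lack the protease domain, 1 fell, Thsd4 (-0.61). Of 16 tested activators and clearance genes, Pcsk6, a proprotein convertase, rose (1.18, SE 0.11, adjusted p = 0.000108) and the lysosomal protease Ctss fell (-0.87). At 24 h Pcsk6 had 88.6, 78.7, 73.4 and 68.2 CPM in controls, 172.9, 165.9, 146.8 and 148.9 CPM with 1 µM, and 184.2, 197.9, 159.5 and 156.0 CPM with 10 µM, with both doses above all controls. Furin, the convertase that opens several Mmp precursors, did not pass (0.19, adjusted p = 0.240). Of 14 tested other inhibitors and modulators, Serpina3n rose (1.41) and Pcolce, an enhancer of procollagen processing, fell (-0.66). Reck, a membrane-anchored inhibitor, did not pass (0.34, adjusted p = 0.130). Of 31 matrix substrates 1 rose, the proteoglycan Bcan (1.86), and none fell. Of the remaining marker lists, cartilage had 1 of 11 genes higher, limb mesenchyme had 2 of 12 lower, epidermis 2 of 12 lower, skeletal muscle 1 of 12 lower, and Schwann cells and neurons had none of 10 called.

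No member was called in the other comparisons with control. With 10 µM at 3 h, 32 members were tested and none was called by edgeR, where 0.00644% of all genes were called. An unadjusted p under 0.05 was reached by 3 members and by 15.5% of all genes. DESeq2 called 447 genes in all and no member. Adamts8, a proteoglycan-cutting enzyme, was the only member with groups apart and lower (4.38% of all genes), with 10.95, 10.8, 8.14 and 9.52 CPM with 10 µM and 12.1, 11.6, 11.5 and 13.5 CPM in controls (log2 fold change -0.30, adjusted p = 0.322). With 1 µM at 3 h, 33 members were tested and none was called (0.0% of all genes). An unadjusted p under 0.05 was reached by 4 members and by 5.19% of all genes, and DESeq2 called no gene at all. There Adamts5 was apart and higher, with 53.5, 45.01, 53.4 and 48.6 CPM with 1 µM against 40.4, 36.3, 42.7 and 43.6 CPM in controls (0.30, adjusted p = 0.928), where 1.67% of all genes were apart and higher. Timp4 and Mmp23 were apart and lower, where 1.37% of all genes were. Timp4 had 0.126, 0.0537, 0.464 and 0 CPM with 1 µM, against 0.810, 0.541, 0.686 and 0.620 CPM in controls (-1.94, adjusted p = 0.930), on at most 14 reads per library. The Timp4 locus lies inside Syn2 on the other strand, which had 0.93 to 3.82 CPM over all libraries. Mmp23 had 2.34, 2.90, 3.71 and 3.59 CPM with 1 µM, against 3.88, 7.08, 5.18 and 4.12 CPM in controls (-0.69, adjusted p = 0.930).

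With 1 µM at 24 h, 34 members were tested and none was called, where 0.077% of all genes were called. An unadjusted p under 0.05 was reached by 2 members and by 5.89% of all genes. DESeq2 called 57 genes in all and no member. Timp2 was the only member with groups apart and higher (2.14% of all genes), and its log2 fold change of 0.20 did not pass (adjusted p = 0.887). The difference in effect between 24 and 3 h called no member for 1 µM (35 tested by edgeR, 0.0359% of all genes called). There 2 members and 3.44% of all genes had an unadjusted p under 0.05, and DESeq2 called 16 genes in all and no member. Between the doses at 3 h no member was called either (35 tested by edgeR, 0.0% of all genes called). There 2 members and 8.3% of all genes had an unadjusted p under 0.05, and DESeq2 called 3 genes in all and no member.

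Between the doses at 24 h, 3 of 35 members were higher with 10 µM than with 1 µM and none was lower, where 1.22% of all genes were called as higher and 3.35% in either direction. These were Adamts1, Timp2 and Mmp9, whose values stand above. With the replicate block Mmp13 and Timp3 were called too, making 5, where the block called 4.88% of all genes. Timp3 had 134.8, 128.4, 119.0 and 132.8 CPM with 10 µM, against 104.3, 120.7, 96.4 and 94.4 CPM with 1 µM (0.31, adjusted p = 0.127, and 0.0336 with the block). All 10 µM libraries but replicate 3 stood above all 1 µM libraries. The groups of Timp2, Adamts1, Adamts18 and Mmp9 did not overlap, all higher with 10 µM, where 5.07% of all genes were apart in that direction. Beside these, 8 of 11 macrophage markers were lower with 10 µM and none was higher, with sums of 69.1 to 100.3 CPM with 10 µM and 172.2 to 257.4 CPM with 1 µM, and their part in the Mmp9 difference was not tested. The comparisons of 10 µM with control and with 1 µM share the 10 µM libraries.

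The controls were also compared between 24 and 3 h, where an effect of culture cannot be told apart from further development of the buds. Of 33 members tested, 5 were higher and 2 were lower at 24 h (21.2% of those tested), where 9.55% of all genes were called, 5.45% as higher and 4.1% as lower. In 6 members every 24 h library lay above every 3 h library and in 2 every one lay below, where 8.14% of all genes were apart and higher and 8.59% apart and lower. Mmp12 and Mmp13 were among the 11 members not tested for low counts. The median log2 fold change of the members was 0.18, against 0.01 for all genes. The 24 h controls also enter the comparisons with BPDP at 24 h, so these are not independent of each other.

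Mmp9 had 33.6, 35.3, 24.3 and 30.1 CPM at 24 h, against 11.7, 8.49, 6.55 and 9.64 CPM at 3 h, with a wide gap and even replicates. Its log2 fold change was 1.77 (SE 0.18, adjusted p = 0.000128), 1.78 within replicates 1 and 2 (adjusted p = 0.0260) and 1.76 within replicates 3 and 4 (adjusted p = 0.000291). Adamts12 (ENSMUSG00000047497, chr15:11064790-11346867, plus strand), which cuts cartilage oligomeric matrix protein, had 26.5, 27.2, 20.4 and 20.3 CPM at 24 h, against 14.6, 11.2, 11.04 and 9.08 CPM at 3 h. It was higher by 1.05 (SE 0.17, adjusted p = 0.00203), by 1.06 within replicates 1 and 2 (adjusted p = 0.108) and by 1.02 within replicates 3 and 4 (adjusted p = 0.00556). Mmp28 (ENSMUSG00000020682, chr11:83440768-83463071, minus strand), an enzyme found in epidermis among other tissues, had 3.18, 3.54, 2.42 and 2.34 CPM at 24 h, against 6.25, 5.89, 7.08 and 6.77 CPM at 3 h. It was lower (-1.17, SE 0.23, adjusted p = 0.00572), with -0.85 within replicates 1 and 2 (adjusted p = 0.347) and -1.53 within replicates 3 and 4 (adjusted p = 0.0113). These 3 calls held without any 1 of the 8 libraries. The Mmp28 locus shares 466 bases with 1700020L24Rik on the other strand, which had 0.710 to 2.93 CPM in the 24 libraries.

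The other 4 calls were closer to the threshold. Adamts15 (ENSMUSG00000033453, chr9:30899155-30922452, minus strand) had 49.1, 92.4, 81.5 and 89.9 CPM at 24 h, against 121.5, 121.7, 122.0 and 128.2 CPM at 3 h, where the 3 h libraries were nearly equal. It was lower (-0.65, SE 0.16, adjusted p = 0.0242), with -0.78 within replicates 1 and 2 and -0.54 within replicates 3 and 4. It was not called without any 1 of the 3 h controls (adjusted p from 0.0509 to 0.0794) or without 24 h replicate 3 (0.0505). Adamts2 (ENSMUSG00000036545, chr11:50602084-50807573, plus strand) had 43.9, 50.2, 32.1 and 37.1 CPM at 24 h, against 34.0, 26.5, 23.0 and 22.1 CPM at 3 h. It was higher by 0.64 (SE 0.16, adjusted p = 0.0276), by 0.64 and 0.62 within the 2 sets of replicates, with the groups overlapping through replicate 1 at 3 h. The Adamts2 call was lost without 3 h replicate 2, 3 or 4 (adjusted p = 0.0656, 0.101 and 0.0979) or 24 h replicate 1 or 2 (0.0651 and 0.0609).

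Mmp2 (ENSMUSG00000031740, chr8:92827328-92853417, plus strand) had 642.0, 418.8, 421.5 and 445.9 CPM at 24 h, against 374.3, 341.1, 314.3 and 344.9 CPM at 3 h, with no overlap and replicate 1 at 24 h far above the rest. It was higher by 0.50 (SE 0.14, adjusted p = 0.0417), by 0.57 within replicates 1 and 2 and by 0.40 within replicates 3 and 4. The call was lost without any 1 of the 3 h controls (adjusted p = 0.0654, 0.101, 0.142 and 0.102 for replicates 1 to 4) or without 24 h replicate 1 or 4 (0.0632 and 0.0650). Timp2 had 392.1, 381.7, 378.0 and 409.2 CPM at 24 h, against 348.8, 308.7, 286.8 and 297.4 CPM at 3 h, with no overlap. It was higher by 0.34 (SE 0.10, adjusted p = 0.0445), by 0.24 within replicates 1 and 2 and by 0.44 within replicates 3 and 4. That call was lost without 3 h replicate 2, 3 or 4 (adjusted p = 0.115, 0.162 and 0.136), without 24 h replicate 1 or 4 (0.0629 and 0.124), and when genes of low count were kept in the fit (0.0764).

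Mmp14 was not called (log2 fold change 0.29, SE 0.11, adjusted p = 0.123), although its 24 h libraries (453.3 to 571.3 CPM) were all above its 3 h libraries (366.6 to 434.7 CPM). Adamts16 was apart too, with 7.46, 8.51, 6.56 and 7.16 CPM at 24 h against 4.17, 5.78, 4.91 and 1.804 CPM at 3 h (0.84, adjusted p = 0.0877). Mmp12 had 75 reads in the 24 h controls and none in those at 3 h. Its level at 24 h, taken as counted, was 24.3-fold a limit of 3 counts over the 4 libraries at 3 h. This allows for counting error at 3 h only. Of the 75 reads 44 came from 24 h replicate 2 and none from replicate 3, and without replicate 2 the ratio is 13.3-fold. Without replicate 3, the 24 h control with no read, Mmp12 passed the count minimum and was called as higher by edgeR (adjusted p = 0.00253). As it had no read at 3 h, it could pass that minimum only through its 24 h libraries. The direction of this call was thereby fixed, and it adds no support for a rise. Mmp13 had 58 reads in the 24 h controls and 4 in those at 3 h. The authors' deposited table of this comparison called 8 of the genes as higher and 3 as lower, among them Mmp13 (log2 fold change 0.86, adjusted p = 0.00834). Deposited fold changes need not be on the scale of the values found here.

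**Figure D5:**
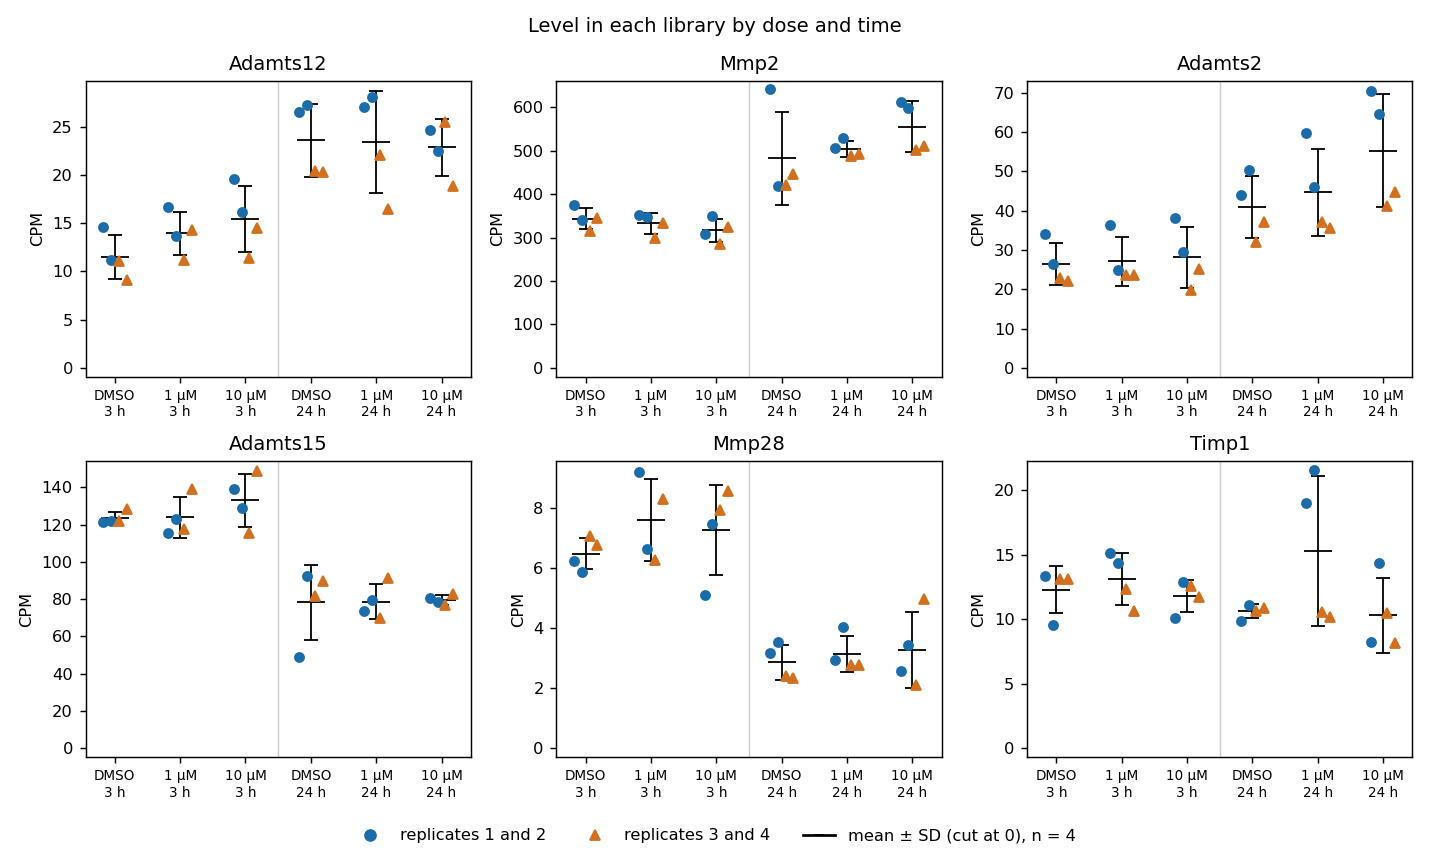
CPM of Adamts12, Mmp2, Adamts2, Adamts15, Mmp28 and Timp1 in each library by dose and time (circles replicates 1 and 2, triangles replicates 3 and 4, black bars mean ± SD, n = 4). The 3 h and 24 h libraries of Mmp2, Adamts15 and Mmp28 do not overlap at any of the 3 doses. Adamts12 has a higher mean at 24 h at each dose, but its times overlap with 1 µM and with 10 µM. A direct test of 24 h against 3 h was made in controls only. Timp1 stands out in replicates 1 and 2 of 1 µM at 24 h.

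Around these genes, 10 of 31 matrix substrates were higher at 24 h than at 3 h in controls and 1 was lower. The largest of these changes were in Comp (1.72), Matn1 (1.54) and Hapln1 (1.09), which belong to cartilage matrix, and in Vwf (-1.37), the substrate of Adamts13. Of 11 cartilage markers 8 were higher and none was lower. Of 13 hypertrophic and osteoblast genes 4 were higher (Alpl 1.37, Mef2c 0.93, Sp7 0.72 and Runx2 0.62). Macrophage markers were higher for 7 of 11, with sums of 171.7 to 262.4 CPM at 24 h and 97.5 to 125.3 CPM at 3 h, none of the 11 at 0 in either group. Their part in the Mmp9 and Mmp12 levels at 24 h was not tested. Of 17 tested activators 3 were higher (Cd44 1.08, Ctss 0.85 and Ctsb 0.60), and of 7 ADAMTS-like genes 3 were higher (Papln 1.86, Adamtsl3 0.89 and Adamtsl1 0.48). Among the other inhibitors and modulators Pcolce2, an enhancer of procollagen processing, was higher (0.73).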

How the data were processed

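Poly-A RNA libraries of cultured forelimb buds (24, in 6 groups of 4) were sequenced, aligned with STAR 2.5 to mm10 and counted per gene with HTSeq 0.6.1, per the submitters' processing notes. The deposited tables hold raw read counts per gene, and the log2 fold changes and adjusted p-values in them are the authors' own, from DESeq2 per the submitters' processing notes. The authors' 5 tables were joined on gene ID. A gene listed in only some tables was given 0 in the rest (34232 cells), 50 columns of per-sample values were not used, and counts repeated between tables differed in 0 cells. No pair of replicates agreed within sampling noise (lowest chi-square per degree of freedom 4.70). Whether the libraries kept strand is not given in the sources used here. The loci of 14 members overlap another gene, 10 of them a protein-coding gene, and without strand the reads of shared stretches could not be told apart.

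Genes kept by filterByExpr (minimum count 10, minimum total 15) were tested with edgeR 4.0.16's quasi-likelihood test (robust, TMM scaling, R 4.3.3), and p-values were adjusted by Benjamini-Hochberg over all genes tested, with a threshold of 0.05. Each comparison with control and the control time comparison was fitted on its own 8 libraries. The doses, and the differences of effects between times, came from 1 fit of all 24. Alternatives were RLE scaling, no filter, DESeq2 1.42.0, a replicate block, 1 fit of all libraries, a term for replicates 1 and 2 against 3 and 4, each of these sets alone, and leaving out each library. The fits were first tested on simulated data.

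The labels number the replicates alike in every group. Same-numbered libraries deviated together from their group means, with every correlation over 0.1, for 10 µM against control at 24 h (0.139 to 0.308), 1 µM against control at 24 h (0.128 to 0.287) and the doses at 3 h (0.106 to 0.229) and 24 h (0.142 to 0.273). Only for 1 µM against control at 24 h did every library correlate best with its own number. In these comparisons the blocked value stands beside a result whose call it changes.

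Per-library values are given for members called in any comparison and for the most abundant member per length of each class of enzymes or inhibitors. Other members given in this way (Mmp12, Mmp3, Mmp1a, Mmp1b, Mmp10, Mmp8, Adamts18, Adamts16, Adamts8, Adamts5, Timp1, Timp3 and Timp4) were chosen after their values were seen. From each gene list up to 4 called genes with the largest changes are named, and Furin, Reck and Col10a1 were chosen after their values were seen. The members and the lists were chosen with earlier results of these data known. Mmp7, Mmp26 and Mmp27 are not analysed here, and 1 gene of a list is not reported here. Promoter sequences are RefSeq's (GRCm38.p6). Floors and intervals cover counting error only, and reads set against a floor are taken as counted.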

Additional observations from a re-analysis of the deposited data

Results flagged for a closer look

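In each group of 4 libraries, a library was marked when its gap to the nearest of the others was, as a share of the group's range, over Dixon's 95% critical value, among members with a mean of at least 1 CPM. This gave 14 marks in 197 sets of 4 values, and chance marks about 1 in 20. At 24 h, control replicate 1 was marked high for Mmp2 (642.0 CPM) and Mmp14 (571.3 CPM) and low for Mmp11 (80.4 CPM). With 10 µM at 24 h, replicate 1 was marked for Adamts19 (12.2 CPM). With 1 µM at 24 h, replicate 2 was marked for Adamts17 (56.4 CPM) and Mmp28 (4.06 CPM) and replicate 3 for Adamts5 (55.4 CPM). With 10 µM at 3 h, replicate 1 was marked for Adamts6 (10.5 CPM) and Adamts9 (70.0 CPM) and replicate 2 for Adamts17 (81.9 CPM). With 1 µM at 3 h, replicate 1 was marked for Adamts2 (36.35 CPM) and Adamts7 (47.65 CPM). In the 3 h controls, replicate 4 was marked for Adamts15 (128.2 CPM) and replicate 2 for Timp1 (9.57 CPM).

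The effect of 10 µM BPDP on Timp2 differed between times: the log2 fold change at 24 h minus that at 3 h was 0.62 (SE 0.12, edgeR quasi-likelihood test, adjusted p = 0.00134), and it was positive in the fits within replicates 1 and 2 and within replicates 3 and 4.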

How the results depend on the processing

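Among 364 alternative values for 23 results on members, 276 kept their direction and side of the threshold, 54 were weaker, 34 were stronger and 0 reversed. With 10 µM against control at 24 h, 2 members were called, against 6 with the replicate block, 5 by DESeq2, 4 in the fit of all 24 libraries, 6 with the replicate set (1 and 2, or 3 and 4) as a term, 1 within replicates 1 and 2 and 3 within replicates 3 and 4. Leaving out 1 library gave 1 to 5: 5 without control replicate 1, 4 without 10 µM replicate 3, and 1 without control replicate 3 or 4 or 10 µM replicate 1 or 2. Mmp12 and Mmp13 are in the count with the replicate block, and Mmp13 is in that without 10 µM replicate 3. Both could be tested only through their 10 µM libraries. In controls at 24 against 3 h, 7 were called, against 11 with the replicate block, 12 by DESeq2, 11 in the fit of all 24 libraries and 1 within replicates 1 and 2, and leaving out 1 library gave 3 (without 3 h replicate 2, 3 or 4) to 9 (without 24 h replicate 3). Between the doses at 24 h, 3 were called, against 5 with the replicate block and 1 within replicates 1 and 2, an alternative chosen after seeing the data, and leaving out 1 library gave 0 (without 1 µM replicate 3 or 10 µM replicate 1) to 3. For the difference of the 10 µM effect between times, 1 was called, and leaving out 1 library gave 1 to 2, with 2 without 24 h control replicate 1 or 2.

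Replicate numbers did not pair the libraries by the bound of 0.1 for 1 µM at 3 h (lowest correlation 0.0951), 10 µM at 3 h (0.0802) and the control times (0.0767). Not every library correlated best with its own number, either there or in the comparisons past the bound, except 1 µM against control at 24 h. With 10 µM against control at 24 h, replicate 1 correlated best with control replicate 2. With the block, Adamts3 (adjusted p = 0.00900), Mmp17 (0.0296), Adamts8 (0.0341) and Adamts16 (0.0352) were also called between the control times. The block changed no other call on a member beyond those given in the report. The cause of these shifts was not tested. The number of genes called overall also moved: 963 with 10 µM at 24 h (6 to 1870 over the alternatives), 1494 between the control times (44 to 2739) and 1 with 10 µM at 3 h (1 to 447, with 335 under the block), where no alternative called a member. Fits within 2 replicates have few degrees of freedom. Members of few reads, such as Mmp1a, Mmp1b, Mmp8 and Mmp10, were limited by depth.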

Other observations

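Between the control times, other tissues of the bud also changed. Of 12 skeletal muscle genes 8 were higher at 24 h than at 3 h and none was lower, among them the myosin heavy chain Myh8 (log2 fold change 1.30) and the skeletal actin Acta1 (1.47). Of 12 epidermis genes 3 keratins were higher, led by Krt17 (2.02). Of 12 endothelial genes Plvap (-2.05) and Tek (-0.99) were lower, and of 12 limb mesenchyme genes Lhx9 (-0.84), Hand2 (-0.52) and Shox2 (-0.44) were lower. Of 10 Schwann cell and neuron genes 1 was higher and 3 were lower.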
